A study of Caenorhabditis elegans with 12 samples.

Results

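This account follows 8 genes of the nematode Caenorhabditis elegans whose products build, cross-link or protect the cuticle while it is replaced at a moult: noah-1, noah-2, mlt-8, mlt-9, mlt-10, mlt-7, mlt-11 and bli-5. They were chosen by gene name from the feature names of the arrays and make up 8 of the 20018 genes measured, represented by 10 of 23187 transcript features. All 8 names were found, and no gene was removed by a filter on low values. Total RNA was labelled with Cy3 and hybridised to 12 single-colour NimbleGen expression arrays, with 1 array for each of 3 strains in each of 4 conditions, after the Shenzhou-8 space flight. The first strain was LS292, which carries dys-1(cx18), a mutation in the gene of dystrophin, the protein that ties the muscle cytoskeleton to the cell membrane. The second was MT4930, which carries ced-1(n1995), a mutation in the gene of a receptor that engulfing cells use to take up dying cells, and the third was the wild type N2. In the static flight group, worms loaded as dauer larvae, a resting stage that resists stress, flew in microgravity and received 1.92 mGy of radiation. In the centrifuged flight group they flew in an on-board centrifuge at 1 g and received 2.27 mGy. A ground control was held in a static slot of the same kind of unit, started 2 days after the flight. These groups, together called the carried worms here, were kept for 16.5 days at 23 °C and collected 7 h after landing or after the end of the run. The transport control was an incubator culture at the home university that did not travel, and its duration, temperature and collection time are not given in the sources used here.

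The cuticle of C. elegans is a collagen-rich coat secreted by the hypodermis, the skin layer of the worm. It is shed and rebuilt at each larval moult, and larvae that leave the dauer stage moult again before they become adults. A new cuticle is laid down under a temporary matrix, its collagens are trimmed and cross-linked, and proteases loosen the old coat until the worm can crawl out of it. Many genes that serve this work are expressed in pulses, once in each moulting cycle. NOAH-1 and NOAH-2 are zona pellucida-domain proteins of the temporary and apical matrix, related to NompA of Drosophila. MLT-8 and MLT-9 are nematode proteins needed to complete a moult, and MLT-10 is a proline-rich protein secreted by the hypodermis. MLT-7 is a heme peroxidase that acts with the dual oxidase BLI-3 in cross-linking cuticle proteins. MLT-11 and BLI-5 are secreted proteins with Kunitz domains, the fold of a family of protease inhibitors.

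Each strain gave 1 array per condition, the design text says that repeats were technical only, and nothing says that the arrays came from separate cultures. No array repeats another, so the spread behind a p-value is what the additive fit of condition and strain leaves over. It mixes differences in response between strains with variation among the arrays at hand, some of which may be technical. The values are whole-animal averages in which fewer hypodermal cells and less RNA per cell cannot be told apart. The mean intensity of an array lay between 902.3 and 1159.6, with the lowest value on the ced-1 mutant array of the ground control. Precision is set by the small number of arrays. The mutated genes did not mark their strains: dys-1 had log2 intensities of 7.29 to 8.68 in the dys-1 mutant and 7.25 to 8.17 in the other strains, and ced-1 had 9.56 to 10.28 in the ced-1 mutant and 9.89 to 10.68 in the other strains. All levels given are log2 intensities averaged over the features of a gene, and all differences are differences of these levels, tested with limma across all 20018 genes with Benjamini-Hochberg adjustment. A gene is said to be called at an adjusted p under 0.05.

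The 6 hypodermal markers found by name (elt-3, lin-26, dpy-7, elt-1, nhr-73 and ceh-16) averaged 9.54 ± 0.15 in static flight, 9.60 ± 0.17 in centrifuged flight, 9.67 ± 0.04 in the ground control and 9.86 ± 0.32 in the transport control (SD, n = 3 arrays each), and 1 of the 6 was called lower in carried worms. No call of presence can be made from them, as the files hold no background, and the dimmest value among them was 88.6, where the 25th percentile of gene intensities was 101. With bus-8B added as the marker bus-8, a choice made after the data were seen, the means were 9.32 ± 0.06, 9.32 ± 0.18, 9.45 ± 0.08 and 9.54 ± 0.27 in the same order of conditions. Developmental markers did not match between groups. The 8 markers of adults, cuticle collagens such as col-19 and yolk proteins such as vit-2, averaged 11.08 to 12.27 in static flight, 10.77 to 11.28 in centrifuged flight, 10.26 to 11.12 in the ground control and 8.20 to 9.17 in the transport control. The 3 dauer markers, col-2, cut-1 and col-40, averaged 7.57 to 9.24 in static flight, 8.42 to 9.43 in centrifuged flight, 9.04 to 10.06 in the ground control and 10.97 to 11.48 in the transport control. Of the adult markers 7 of 8 rose in carried worms against the transport control, and all 3 dauer markers fell. Sperm markers followed the adult markers, with 5 of 6 called higher in carried worms. Markers of the pharynx averaged 10.93 in static flight, 11.15 in centrifuged flight, 10.84 in the ground control and 11.66 in the transport control, and those of neurons 8.74, 8.91, 8.77 and 9.32, with 1 of 3 and 1 of 5 called lower in carried worms. The wild-type transport control array stood apart from the mutant ones in its oocyte markers, at 12.17 against 9.51 in the dys-1 mutant and 9.61 in the ced-1 mutant, and in its germline markers, at 10.85 against 9.95 and 9.69. Of 3 germline markers 1 was called higher in carried worms, and none of the 5 oocyte, 4 gut and 4 body muscle markers was called in that comparison. In static flight alone against the transport control, 2 of 5 oocyte and 2 of 3 germline markers were called higher, with median differences of 1.26 and 1.10. There 1 of 4 gut markers was called lower. The adult, dauer, sperm, pharynx and neuron markers move with every comparison against the transport control described here. The part of any of these markers in those results was not tested.

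**Figure D1:**
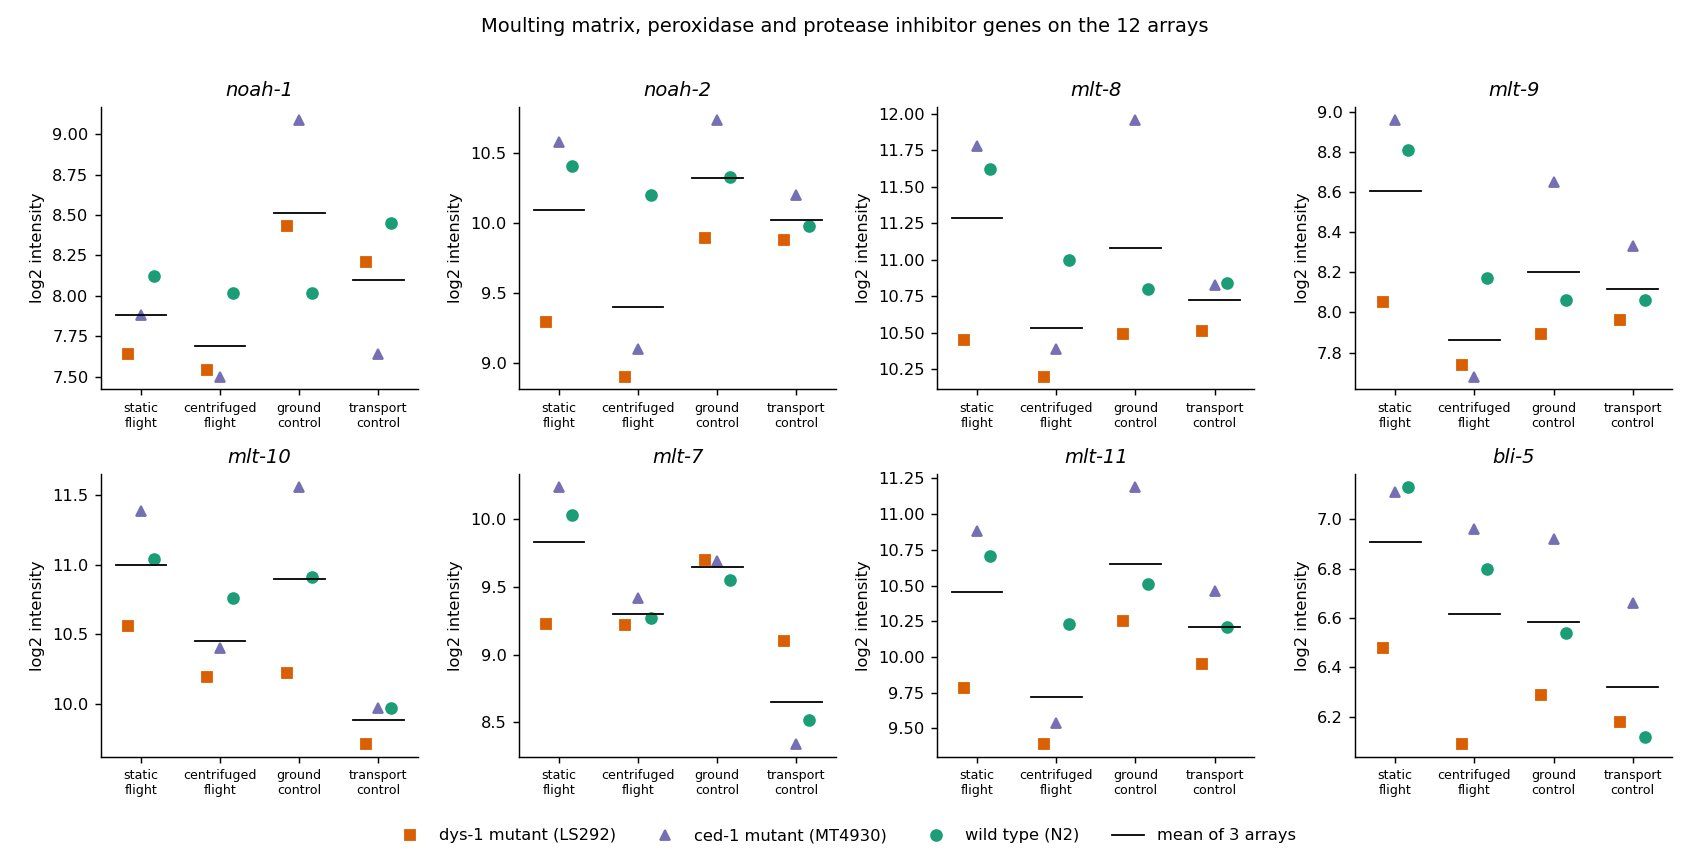
Log2 intensity of each of the 8 genes (vertical axis, one panel per gene) in the 4 conditions (horizontal axis), with 1 point per array shaped by strain and a line at the mean of 3 arrays. For mlt-7 and mlt-10 every transport control array lies below every array of the carried worms, while noah-1, noah-2 and mlt-11 have their highest means in the ground control.

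The peroxidase gene mlt-7 and the matrix gene mlt-10 were the members that rose in carried worms against worms left at the university. mlt-7 had log2 intensities of 9.23, 10.24 and 10.03 in static flight in the dys-1 mutant, the ced-1 mutant and the wild type. In the same order of strains it had 9.22, 9.42 and 9.27 in centrifuged flight, 9.70, 9.69 and 9.55 in the ground control and 9.10, 8.34 and 8.52 in the transport control. The 9 arrays of carried worms therefore all lay above the 3 of the transport control, and the dys-1 transport control array came closest to them. mlt-7 was 0.94 ± 0.23 higher in carried worms (SE, 1.92-fold, 95% interval 0.44 to 1.44, limma adjusted p = 0.0176). Within strains the difference was 0.28 in the dys-1 mutant, 1.45 in the ced-1 mutant and 1.09 in the wild type.

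mlt-10 had 10.56, 11.39 and 11.04 in static flight in the dys-1 mutant, the ced-1 mutant and the wild type. It had 10.19, 10.40 and 10.76 in centrifuged flight, 10.22, 11.56 and 10.91 in the ground control and 9.71, 9.97 and 9.97 in the transport control, in the same order of strains. Again no array of the carried worms overlapped the transport control, and the narrowest distance was that between the dys-1 array of centrifuged flight and the upper transport control arrays. The difference was 0.90 ± 0.20 (SE, 1.86-fold, 95% interval 0.46 to 1.34, limma adjusted p = 0.0107). In this comparison 12.5% of all genes were called, with 6.47% called higher and 6% called lower, and 2 of the 8 members were called, both higher. The groups did not overlap for 8.25% of all genes in either direction and for the same 2 members.

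Both calls leaned on single transport control arrays. The mlt-7 call ended without the wild-type transport control array (0.86, adjusted p = 0.0704) and without the ced-1 one (0.69, adjusted p = 0.204). The mlt-10 call ended without the ced-1 transport control array (0.77, adjusted p = 0.119). Both calls were also lost without all wild-type arrays and without all ced-1 arrays, although the differences stayed positive, at 0.69 to 0.88.

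The other 6 members were not called in this comparison. Their differences between carried worms and transport control were 0.39 for bli-5 (95% interval 0.00 to 0.77), 0.24 for mlt-8 (−0.30 to 0.78), 0.11 for mlt-9 (−0.33 to 0.55), 0.07 for mlt-11 (−0.39 to 0.53), −0.07 for noah-1 (−0.61 to 0.46) and −0.08 for noah-2 (−0.61 to 0.44). For each of them the groups overlapped. The median over the 8 members was 0.17, with 0.00 over all genes. The upper end of each of these intervals lay below the estimates of mlt-7 and mlt-10.

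Split by condition, the estimates of mlt-7 and mlt-10 against the transport control were 1.18 and 1.11 in static flight, 0.65 and 0.57 in centrifuged flight and 0.99 and 1.01 in the ground control. Static flight against the ground control was not called for either gene (0.19 and 0.10, limma adjusted p of 0.863 and 0.921). Against the transport control, static flight worms had 1.18 ± 0.29 more mlt-7 (SE, 2.26-fold, limma adjusted p = 0.0132) and 1.11 ± 0.25 more mlt-10 (2.16-fold, adjusted p = 0.00866), again with no overlap. Those were 2 called members of 8, where 15.1% of all genes were called and 24.8% had groups that did not overlap. bli-5 came next, at 0.59 ± 0.22 (unadjusted p = 0.0189, limma adjusted p = 0.0932). The mlt-7 call ended without the wild-type static flight array (1.04, adjusted p = 0.0803), the ced-1 static flight array (0.95, adjusted p = 0.102) or the ced-1 transport control array (0.93, adjusted p = 0.102). That of mlt-10 ended without the ced-1 static flight array (1.03, adjusted p = 0.058) or the ced-1 transport control array (0.99, adjusted p = 0.0623).

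Worms of the ground control, which did not fly, also had more mlt-10 than the transport control, by 1.01 ± 0.25 (SE, 2.02-fold, limma adjusted p = 0.0311). mlt-7 had a difference of 0.99 ± 0.29 in that comparison and missed the threshold (1.98-fold, adjusted p = 0.0632). All 8 members had positive differences, of 0.09 to 1.01, as did 46.6% of all genes, and 1 of 8 was called where 5.34% of all genes were. Not every strain shared that direction. mlt-8 had −0.01 in the dys-1 mutant, 1.13 in the ced-1 mutant and −0.04 in the wild type. In the same order mlt-9 had −0.06, 0.32 and 0.01, and noah-1 had 0.22, 1.45 and −0.42. The other members had positive differences in all 3 strains. The mlt-10 call ended without the ced-1 ground control array (0.75, adjusted p = 0.182), the wild-type transport control array (0.99, adjusted p = 0.0657) or the ced-1 transport control array (0.89, adjusted p = 0.176). In a fit without strain as a block its adjusted p was 0.107. Centrifuged flight against the transport control gave no call among the members, where 4.63% of all genes were called. mlt-7 and mlt-10 nonetheless had differences of 0.65 ± 0.29 and 0.57 ± 0.25 (SE), with limma adjusted p of 0.259 and 0.263, and their arrays did not overlap those of the transport control, as for 19.3% of all genes. For mlt-7 the difference was 0.12 in the dys-1 mutant, 1.09 in the ced-1 mutant and 0.75 in the wild type. The 3 comparisons against the transport control share its arrays, so their common direction is not independent.

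Over all 4 conditions together, mlt-10 differed (limma moderated F test, adjusted p = 0.0331) and mlt-7 came next (adjusted p = 0.0593), where 8.23% of all genes were called. The mlt-10 call in the F test ended without any 1 array of static flight or of the transport control, with adjusted p of 0.0625 to 0.186, and in the fit without strain as a block (0.127). In 2 of these fits mlt-7 was called instead. They were those without the dys-1 array of static flight (F test, adjusted p = 0.0141) or of the transport control (0.0296). Condition made up 72.5% of the sum of squares of mlt-7 over the 12 arrays, and strain 0.759%. mlt-10 had 61.4% for condition and 25.2% for strain, and the smallest share for condition was that of mlt-8, at 27.8%, with 41% for strain. bli-5 had 53.7% for strain, the largest such share of the 8, while noah-1 had 48% in neither.

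**Figure D2:**
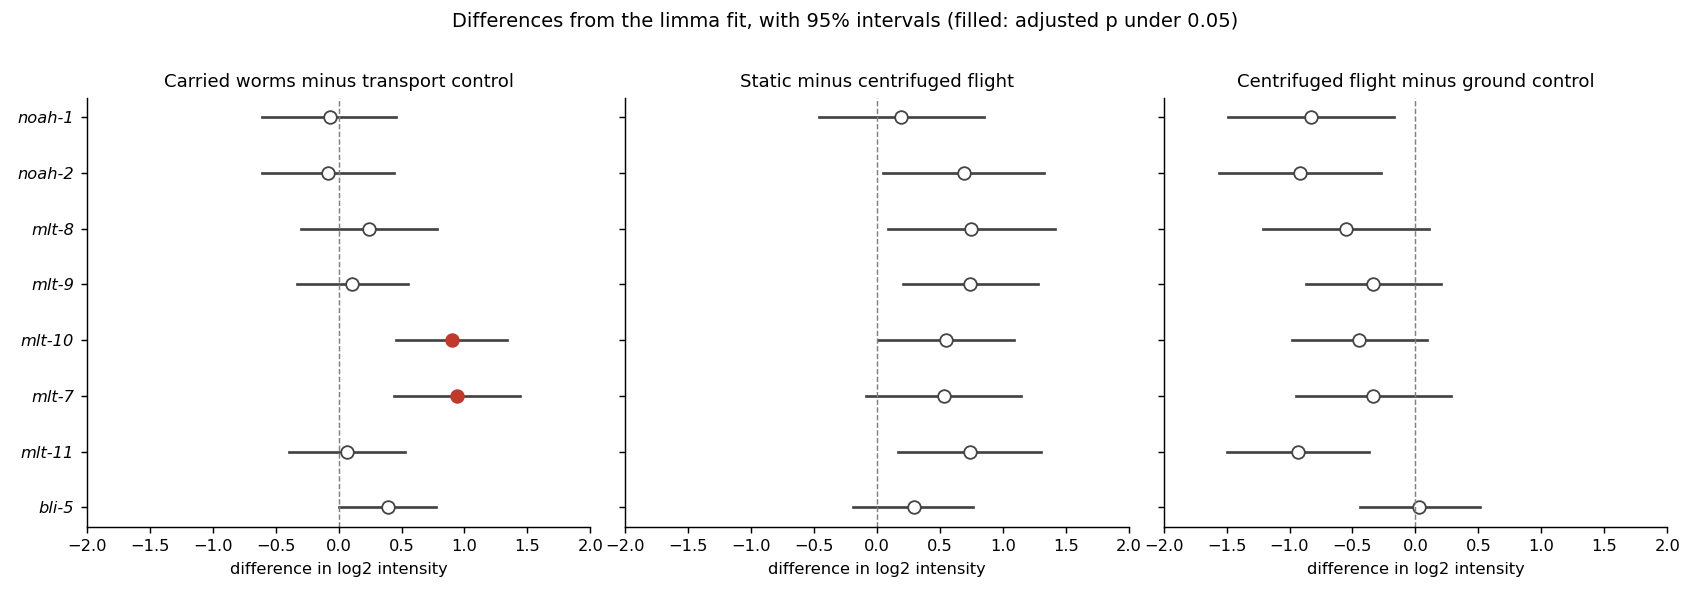
Differences in log2 intensity (horizontal axis) of the 8 genes (rows) in 3 comparisons, with points at the limma estimate, bars for 95% intervals and filled points for an adjusted p under 0.05. Only mlt-10 and mlt-7, in carried worms against the transport control, are filled, while all 8 points of static against centrifuged flight lie to the right of 0.

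Static against centrifuged flight sets worms in microgravity beside worms held at 1 g on the same flight, with the somewhat different doses of radiation given at the start. No member was called, where 0.005% of all genes were. All 8 members nevertheless had higher means in static flight, with differences of 0.19 to 0.75 and a median of 0.62, beside a median of 0.00 over all genes, of which 50.6% had a positive difference. mlt-8 showed the largest, 0.75 ± 0.31 (SE, 1.68-fold, 95% interval 0.09 to 1.41, limma adjusted p = 0.352). mlt-9 and mlt-11 had 0.74 ± 0.25 and 0.74 ± 0.26 (adjusted p of 0.239 and 0.273), noah-2 had 0.69 ± 0.30 and mlt-10 had 0.55 ± 0.25. These 5 had an unadjusted p under 0.05, as did 7.94% of all genes in the same direction. mlt-7, bli-5 and noah-1 had 0.53, 0.29 and 0.19, with intervals that include 0.

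The direction was the same in each of the 3 strains for all 8 members, but the size was not. For mlt-7 the difference in the dys-1 mutant was only 0.01, and for noah-1 it was 0.10 in the dys-1 mutant and in the wild type. Single features of noah-1 went the other way. In the wild type C34G6.6a had 7.97 in static and 8.30 in centrifuged flight, and in the dys-1 mutant C34G6.6b had 7.63 and 7.69. For noah-2 the difference was 0.38 in the dys-1 mutant, 1.48 in the ced-1 mutant and 0.21 in the wild type. mlt-11 had 0.39, 1.34 and 0.48 in those strains, and mlt-8 had 0.24, 1.38 and 0.62. The ced-1 mutant thus showed the widest distance for 7 of the members, the exception being bli-5, at 0.38, 0.15 and 0.34. Without the ced-1 centrifuged flight array the median of the 8 differences was 0.40 and no member had an unadjusted p under 0.05. Without all ced-1 arrays the median was 0.37, again with no such p, and all 8 differences remained positive in both fits. The range of the median when 1 array was left out was 0.40 to 0.90. The 8 adult markers had a median difference of 0.71 between static and centrifuged flight, and the 3 dauer markers −0.77. Sperm, oocyte and germline markers averaged 10.08, 11.66 and 11.04 in static flight, against 9.37, 10.90 and 10.68 in centrifuged flight. Gut markers averaged 10.14 in static flight and 10.52 in centrifuged flight, and the arrays of the groups did not overlap for the germline and gut markers. None of these markers was called, and their part in the members' differences was not tested.

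Read array by array, mlt-8 had linear intensities of 1394, 3505 and 3144 in static flight and 1179, 1342 and 2049 in centrifuged flight, in the order dys-1 mutant, ced-1 mutant and wild type. On the log2 scale mlt-11 had 9.78, 10.88 and 10.71 in static flight against 9.39, 9.54 and 10.23 in centrifuged flight. noah-2 had 9.29, 10.58 and 10.41 against 8.90, 9.10 and 10.20. In all of these the dys-1 array of static flight sat among the centrifuged arrays, so the groups overlapped, and the same held for the other 5 members.

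Centrifuged flight against the ground control compares worms at 1 g in orbit with worms at 1 g on Earth. No member was called, where 0.035% of all genes were. For 7 of the 8 members the centrifuged mean was the lower one, with a median difference of −0.50, and bli-5 stood at 0.03. Over all genes the median was 0.05, and 57% had a positive difference. The largest differences were those of the protease inhibitor gene mlt-11 and the matrix genes noah-2 and noah-1. mlt-11 had −0.93 ± 0.26 (SE, unadjusted p = 0.00338, limma adjusted p = 0.562), noah-2 had −0.92 ± 0.30 (adjusted p = 0.707) and noah-1 had −0.83 ± 0.31 (adjusted p = 0.748). These 3 had an unadjusted p under 0.05, as did 2.93% of all genes in that direction. The 8 adult markers had a median difference of 0.75 in this comparison, the 3 dauer markers −0.62 and the other marker lists −0.22 to 0.31. No marker was called, and their part was not tested.

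noah-1 had 7.54, 7.50 and 8.02 in centrifuged flight in the dys-1 mutant, the ced-1 mutant and the wild type, and 8.43, 9.09 and 8.02 in the ground control. Its wild-type arrays were level, and the distance came from the mutants. Both mlt-11 and noah-2 had their widest distance in the ced-1 mutant too, at −1.65 and −1.64, against −0.28 and −0.13 in the wild type. In the wild type mlt-8 and mlt-9 went the other way, at 0.20 and 0.10. For mlt-7 and mlt-11 no centrifuged array reached the ground control arrays, which was so in that direction for 3.88% of all genes. For noah-1 the highest centrifuged and the lowest ground control array, both of the wild type, were equal to the digits given. The ced-1 ground control array, which had the lowest mean intensity, held the highest value of mlt-8, mlt-10, mlt-11, noah-1 and noah-2. Without it the median difference of the 8 members was −0.27, and without all ced-1 arrays it was −0.23 with no unadjusted p under 0.05.

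Static flight against the ground control, the contrast of flight with its control on Earth, showed less. None of the 8 members was called or had an unadjusted p under 0.05, where 0.21% of all genes were called and 11.7% had such a p. The differences ran from −0.64 for noah-1 (95% interval −1.29 to 0.02) to 0.41 for mlt-9 (−0.13 to 0.94), with a median of 0.15. Those of mlt-7, mlt-8 and mlt-10 were 0.19, 0.20 and 0.10, with intervals of −0.42 to 0.80, −0.46 to 0.86 and −0.44 to 0.64. The 8 adult markers had a median difference of 1.41 here, with 2 called higher, and the 3 dauer markers −1.49. Sperm, oocyte and germline markers had 0.67, 0.86 and 0.52, and the other marker lists −0.13 to 0.13. The part of the markers was not tested. When both flown groups were set against both controls, 5.94% of all genes were called and no member was. noah-1 was the member with the smallest p, at 7.78 ± 0.26 in flown worms and 8.31 ± 0.49 in control worms (SD, n = 6 each), a difference of −0.53 (unadjusted p = 0.0292, limma adjusted p = 0.193). It was −0.33 without the ced-1 ground control array. Between these groups 7 of 8 adult and 4 of 6 sperm markers were called higher, with median differences of 1.58 and 1.24. Of the 3 dauer markers 2 were called lower, with a median of −2.23. No marker of the other lists was called, and the part of the markers was again not tested.

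Ordered by their means, the members fell into 2 patterns. mlt-7, mlt-10 and bli-5 were lowest in the transport control and highest in static flight. mlt-8, mlt-9, mlt-11, noah-1 and noah-2 were lowest in centrifuged flight, and among them mlt-11, noah-1 and noah-2 were highest in the ground control. Most neighbours in these orders overlapped. The exceptions were in mlt-7, where the ground control lay above centrifuged flight by 0.34 and centrifuged flight above the transport control by 0.65, and in mlt-10, where centrifuged flight lay above the transport control by 0.57. None of these 3 steps was called. bli-5 spanned 1.04 over the 12 arrays, from 6.09 to 7.13, at intensities of 68.3 to 141 where the lowest gene on any array had 39.8. Its mean level, an intensity of 97.5, lay below the 25th percentile of gene intensities, which was 101. The other members spanned 1.28 to 1.90.

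**Figure D3:**
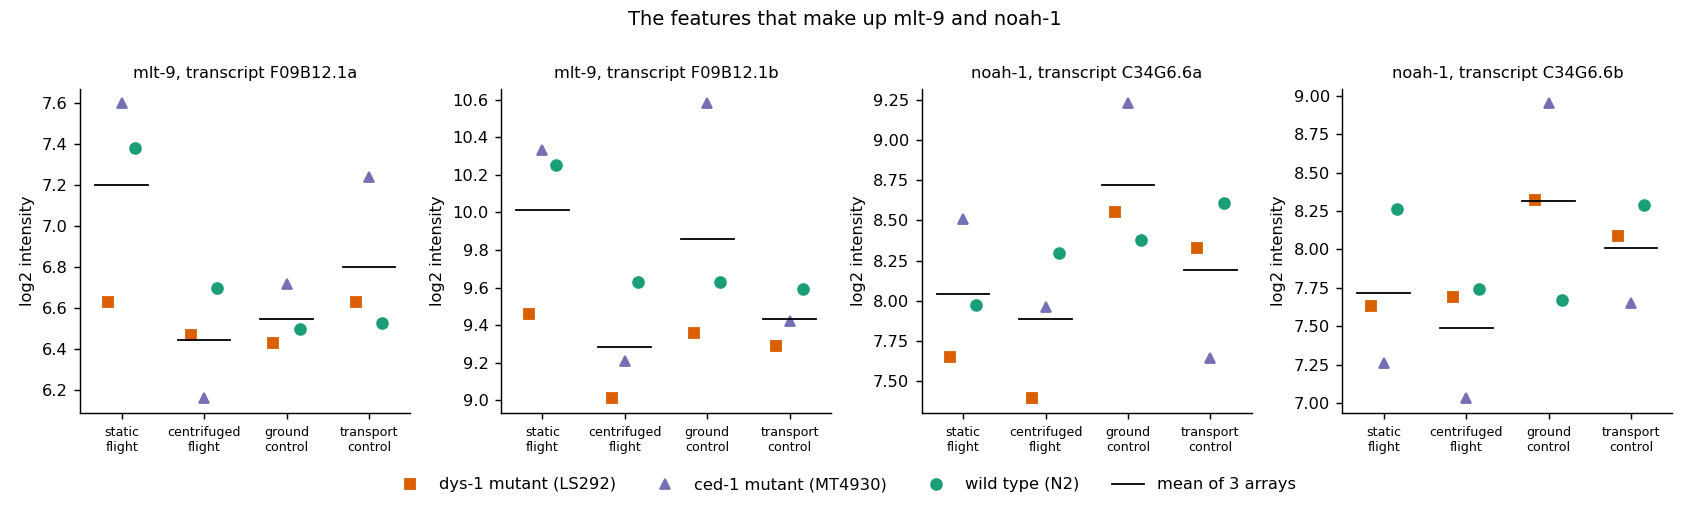
Log2 intensity (vertical axis, a scale of its own in each panel) of the 2 transcript features behind mlt-9 and the 2 behind noah-1, by condition (horizontal axis), with 1 point per array and a line at the mean of 3 arrays. Both mlt-9 features have their highest mean in static flight, and both noah-1 features have theirs in the ground control.

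Only mlt-9 and noah-1 were represented by more than 1 feature, named for different transcripts. mlt-9 transcript F09B12.1b had 10.01 ± 0.48 in static flight, 9.28 ± 0.31 in centrifuged flight, 9.85 ± 0.64 in the ground control and 9.43 ± 0.15 in the transport control (SD, n = 3 each). Transcript F09B12.1a was the dimmer feature, at 7.20 ± 0.50, 6.45 ± 0.27, 6.55 ± 0.15 and 6.80 ± 0.39 in those groups. Static flight was highest and centrifuged flight lowest for both, while the ground control lay above the transport control for F09B12.1b and below it for F09B12.1a. For noah-1, transcript C34G6.6a had 8.04 ± 0.43 in static flight, 7.89 ± 0.46 in centrifuged flight, 8.72 ± 0.45 in the ground control and 8.19 ± 0.50 in the transport control. Transcript C34G6.6b had 7.72 ± 0.51, 7.48 ± 0.40, 8.31 ± 0.64 and 8.01 ± 0.33, in the same order of groups. Pearson's r between the features of a gene over the 12 arrays was 0.62 for mlt-9 and 0.59 for noah-1.

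**Figure D4:**
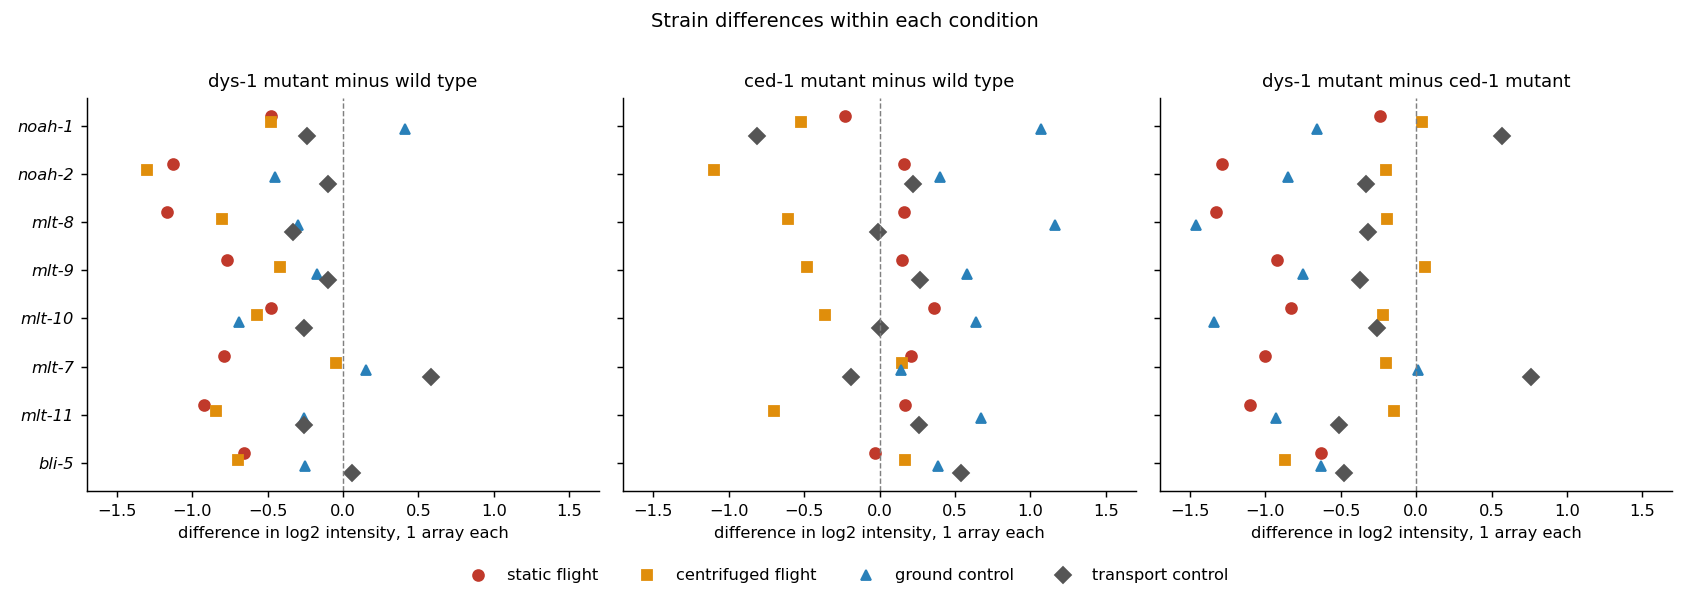
Differences in log2 intensity between strains (horizontal axis), each between 2 single arrays of one condition, for the 8 genes (rows) and 3 pairs of strains (panels). In the dys-1 mutant against the wild type nearly all points lie left of 0, with noah-1, mlt-7 and bli-5 holding the exceptions.

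Between strains no gene of the 20018 was called, so that 0% of all genes and 0 of 8 members passed in each of the 3 pairs of strains. At an unadjusted p under 0.05, limma gave 14.9% of all genes for the dys-1 mutant against the wild type, 5.29% for the ced-1 mutant against the wild type and 18.7% for the dys-1 mutant against the ced-1 mutant. All 8 members had lower means in the dys-1 mutant than in the wild type, by −0.74 to −0.03 with a median of −0.44. Over all genes the median was −0.03, and 46.1% had a positive difference. noah-2 averaged 9.49 ± 0.48 in the dys-1 mutant and 10.23 ± 0.19 in the wild type (SD, n = 4 each), a difference of −0.74 (unadjusted p = 0.0124, limma adjusted p = 0.227). mlt-8 had −0.65, mlt-11 −0.57 and mlt-10 −0.50, and these 4 were the members with an unadjusted p under 0.05, a p that 7.28% of all genes had in that direction. The arrays of the strains did not overlap for mlt-8, mlt-9 and noah-2, as for 2.78% of all genes in that direction.

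Within conditions, the distance of noah-2 between the dys-1 mutant and the wild type was −1.13 in static flight, −1.30 in centrifuged flight, −0.45 in the ground control and −0.10 in the transport control. mlt-8 gave −1.17, −0.80, −0.30 and −0.33 in that order, and mlt-11 gave −0.92, −0.84, −0.26 and −0.26. mlt-10 gave −0.48, −0.57, −0.69 and −0.26 in the same order, with its widest distance in the ground control. The distances were wider in both flown groups for noah-2, mlt-8 and mlt-11. Yet the test of strain by flight called none of the 20018 genes (0%), where 2.38% had an unadjusted p under 0.05. The members' unadjusted p ran from 0.294 to 0.897. That test has small power, since its spread includes the differences between static and centrifuged flight and between the ground and transport controls. mlt-7 had the opposite sign in some conditions, with −0.79 in static flight and 0.58 in the transport control. Without the dys-1 static flight array or without the wild-type centrifuged flight array no member had an unadjusted p under 0.05 between these strains, and the medians were −0.39 and −0.35. Without either the dys-1 or the wild-type static flight array 1 member had a positive difference, of 0.25 and 0.08. The 8 adult markers had a median difference of −0.71 and the 3 dauer markers of 0.89 between the dys-1 mutant and the wild type. Oocyte markers had −1.20, pharynx markers 0.88 and the other marker lists −0.34 to 0.34. None of these markers was called, and their part was not tested.

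The dys-1 mutant also had the lower mean for all 8 members against the ced-1 mutant, by −0.83 to −0.07 with a median of −0.66. Over all genes the median was −0.04, and 46.1% had a positive difference. Here 6 members had an unadjusted p under 0.05, as did 8.87% of all genes in that direction. bli-5 averaged 6.26 ± 0.17 in the dys-1 mutant and 6.91 ± 0.19 in the ced-1 mutant (SD, n = 4 each), with no overlap, as for 2.53% of all genes in that direction, and had the smallest p (−0.65, unadjusted p = 0.00438, limma adjusted p = 0.108). These means are intensities of 76.7 and 121, where the 25th percentile of gene intensities was 101. With an offset of 50 the bli-5 difference was −0.43. Without the dys-1 static flight array or the ced-1 ground control array the number with an unadjusted p under 0.05 was 3. In these fits 2 members or 1 member had a positive difference, of at most 0.17 and 0.22. The 8 adult markers had a median difference of −0.82 between these strains and the 3 dauer markers 0.02. Oocyte markers had −0.61, pharynx markers 0.80 and the other marker lists −0.45 to 0.33. None of these markers was called, and their part was not tested. The ced-1 mutant against the wild type gave differences of −0.12 to 0.27, all with intervals that include 0 and no unadjusted p under 0.05. Both comparisons of the dys-1 mutant use its 4 arrays.

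**Figure D5:**
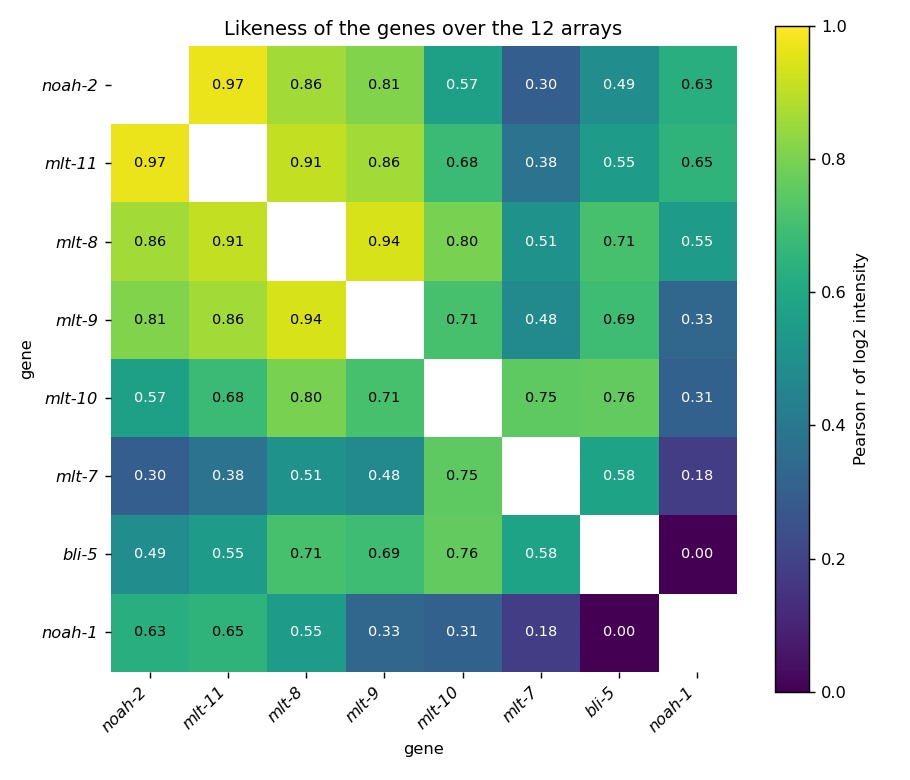
Pearson's r of log2 intensity over the 12 arrays for each pair of the 8 genes, with genes on both axes and colour from 0 to 1. noah-2, mlt-11, mlt-8 and mlt-9 form a block of values from 0.81 to 0.97, and noah-1 with bli-5 has 0.00.

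The members did not all vary together. Over the 12 arrays the 28 pairs had Pearson's r of 0.00 to 0.97, with a median of 0.64 and 7 pairs above 0.8, given as a description since the arrays share strains and conditions. The closest pair joined the inhibitor gene mlt-11 and the matrix gene noah-2, at 0.97, followed by mlt-8 with mlt-9 at 0.94 and mlt-8 with mlt-11 at 0.91. noah-1 had 0.63 with noah-2, its nearest relative among the members, and 0.18 with mlt-7. The peroxidase gene mlt-7 was closest to mlt-10, at 0.75.

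Scaled to the same spread and averaged, the 8 members gave a score that was highest on the ced-1 arrays of the ground control (1.42 SD) and static flight (1.20 SD) and lowest on the dys-1 array of centrifuged flight (−1.13 SD). Outside the members, the gene most like that score was bus-8B, named for a predicted glycosyltransferase of the hypodermis, with r = 0.981 over 12 arrays, and 0.973 after strain means were taken out. ZC123.1, ZC434.9, T06G6.6 and D1054.9 followed, with r of 0.968, 0.964, 0.962 and 0.959. For single members the most similar gene was dpy-8, a cuticle collagen gene, for mlt-8 (r = 0.979), lon-3, also a cuticle collagen gene, for mlt-10 (0.967), the lipocalin-related matrix gene lpr-3 for noah-2 (0.952) and the patched-related gene ptr-18 for mlt-9 (0.967). mlt-11 was closest to D1054.9 (0.988), mlt-7 to M70.3 (0.943), noah-1 to irld-46 (0.911) and bli-5 to ost-1, the worm osteonectin gene (0.945). By the same score, the marker lists ranged from 0.61 for sperm and 0.54 for adults to −0.73 for neurons and −0.81 for the pharynx. The 6 hypodermal markers had −0.18. With bus-8B added to them the value was 0.12, a rise built in by adding the gene most like the score.

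Other genes of the moulting machinery were called in both directions between carried worms and the transport control. Among 9 dual oxidases, their partners and heme peroxidases, 1 rose in carried worms and 3 fell, where 6.47% of all genes rose and 6% fell. The peroxidase gene skpo-3 rose by 1.22 ± 0.21 (SE, limma adjusted p = 0.00129), while the dual oxidase gene bli-3, whose product works with MLT-7, fell by 1.20 ± 0.26 to 8.60 in carried worms, against 9.79 in the transport control (adjusted p = 0.0072). skpo-2 fell by 1.15, and tsp-15, a tetraspanin partner of BLI-3, fell by 1.01. The calls of bli-3 and tsp-15 ended without the ced-1 transport control array, and that of skpo-2 without either mutant's array of that group, while the skpo-3 call held whichever array was left out. The list's median was −0.10.

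Of the 12 measured genes related to mlt-10, 1 rose and 1 fell: mltn-12 to 1.68-fold and mltn-7 to 0.501-fold of the transport control (limma adjusted p of 0.0181 and 0.00377). The mltn-12 call ended without the ced-1 transport control array. Among 11 proteases and enzymes of collagen processing, nas-37, an astacin protease used to shed the old cuticle, rose by 0.99 (adjusted p = 0.00244), and phy-2, a prolyl hydroxylase subunit, fell by 0.90 (adjusted p = 0.0131). Of 11 other matrix genes only pan-1, a leucine-rich repeat protein, was called, at −0.66 (adjusted p = 0.0178). Of 11 genes of endocytosis and sterol sensing only mlt-2, which encodes an ankyrin partner of the NEKL kinases, was called, at −0.85 (adjusted p = 0.0111). The medians of these lists lay between −0.21 and 0.18.

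Regulators of moulting fell where they were called. Of 12 measured, 3 fell in carried worms and none rose, where 6% of all genes fell and 6.47% rose: the nuclear receptor gene nhr-25 by 0.96, the zinc finger gene blmp-1 by 0.87 and the membrane-bound transcription factor gene myrf-1 by 0.70 (limma adjusted p of 0.0145, 0.0191 and 0.0221). The list had a median of −0.41, with 0.00 over all genes. The calls of pan-1, phy-2, mlt-2, nhr-25, blmp-1 and myrf-1 ended without the dys-1 or the ced-1 transport control array, and blmp-1 also without the wild-type one, with adjusted p up to 0.162, while those of mltn-7 and nas-37 held without any 1 array.

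Between static and centrifuged flight no gene of these lists was called. The astacin genes nas-7, nas-37 and nas-36 had differences of 0.92, 0.73 and 0.58, the patched-related genes ptr-4 and ptr-18 both had 0.89, and skpo-2 and the dual oxidase maturation gene doxa-1 had 1.06 and 0.81, with limma adjusted p of 0.163 to 0.309. In the other direction the transcription factor gene grh-1 had −0.73 (adjusted p = 0.304) and elt-3 had −0.67 (adjusted p = 0.46), while the zinc finger gene bed-3 had 0.69 (adjusted p = 0.242). The medians were 0.31 for the other matrix genes, 0.30 for oxidases and peroxidases, 0.14 for endocytosis and sterol sensing, 0.04 for relatives of mlt-10, 0.00 for proteases and collagen processing and −0.25 for regulators, beside 0.62 for the 8 members.

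Some listed genes ran close to the members' score all the same. ptr-18 and qua-1, a hedgehog-related gene needed for moulting, had r = 0.93 with it over the 12 arrays, lpr-3 had 0.89, nas-7 had 0.87 and ptr-4 had 0.86. Among the regulators, nhr-23, the nuclear receptor gene that drives larval moults, had the highest value, 0.87, while elt-3, a hypodermal GATA factor gene that also stands among the hypodermal markers, had the lowest, −0.93. bli-3 and tsp-15 had −0.52 and −0.50.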

How the data were processed

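RNA of 12 C. elegans samples was measured on 1-colour NimbleGen arrays, and groups were taken from the condition and strain in the labels. The deposited values are a linear intensity for each transcript feature. Per the submitters' processing notes, the authors had made them with RMA, whose version the sources used here do not give. This method removes background, gives all arrays one distribution and summarises probes (5 or 6 for 23148 of 23187 features). A change in total RNA is thereby hidden, and without detection flags no gene can be declared absent. The authors' deposited value table held the same intensity for 18185 features, within 1.3e-06 on the log2 scale. Here the log2 of each intensity was taken as it stood, and the features of each gene were averaged. Symbols came from RefSeq for 19428 of 20018 genes and from the array files for 590.

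The additive model of condition plus strain was fitted to all 12 arrays in R 4.3.3 (limma 3.58.1, 6 residual and 7.71 prior degrees of freedom). A second model tested strain by flight over all strains together. In it the flown arrays of a strain, and its control arrays, stood in for replicates, which left small power. Strain pairs the arrays, since equal replicate numbers are the same strain per the labels. P-values were adjusted by Benjamini-Hochberg over all genes, and 95% intervals come from the moderated t distribution. The fit was tested on simulated data.

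The members and gene lists were chosen with earlier results of these data known. All 8 members are named. Of each other list up to 4 genes per comparison could be named, those called with the largest change or else those with the largest change, as well as the 5 genes most like the members' score and the 1 most like each member. Descriptions by likeness also name the listed genes with the highest and lowest r, chosen after their values were seen. The lists held the other matrix proteins, the mlt-10 family, oxidases and peroxidases, proteases and collagen processing, endocytosis and sterol sensing, regulators, and markers of hypodermis, muscle, pharynx, gut, neurons, sperm, oocytes, germline, adults and dauers. mltn-6 was not matched by name, nor was the marker bus-8, which the RefSeq table splits into bus-8A and bus-8B and of which the arrays hold bus-8B. An alternative with bus-8B among the hypodermal markers was chosen after the data were seen. The listed pqn-47 is the same gene as myrf-1. Alternatives were the normalization, an offset of 50, a filter on genes whose highest intensity was under 200, the choice of features, the variance model, array weights, no strain block, the groups compared alone, and leaving out each array or strain. Promoter and protein sequences were not analysed here.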

Additional observations from a re-analysis of the deposited data

Results flagged for a closer look

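On 1 array a member stood apart from the other arrays of its strain. mlt-9 had a log2 intensity of 8.81 in wild-type worms of static flight, against 8.06 to 8.17 in the other 3 wild-type arrays, and its gap to the nearest made up 0.855 of the strain's range, above Dixon's 95% critical value for 4 samples. The 8 genes in 3 strains gave 24 such groups, and chance marks about 1 in 20. For mlt-8 the flown arrays of the wild type lay above both of its controls (flown minus control 0.49), while those of the dys-1 mutant lay below theirs (−0.18). The limma test of strain by flight gave an unadjusted p of 0.462 and an adjusted p of 1 for this gene. It covers all 3 strains together and has small power, so it cannot decide whether these 2 strains differ.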

How the results depend on the processing

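Of the 13 comparisons, counted by how many of the 8 members were called, 281 of 311 alternatives gave a count within 1.5 times and 30 did not. For carried worms against the transport control 2 members were called, against 0 without the wild-type strain, 0 without the ced-1 strain and 0 to 2 when 1 array was left out. For static flight against the transport control 2 were called, against 1 without the wild type, 0 without the ced-1 strain and 0 to 2 with 1 array left out. For the ground control against the transport control 1 was called. There the count was 2 after a further quantile normalization or with trended robust variance, 0 with no replicate block (strain), with array weights, with only the groups compared or without any 1 strain, and 0 to 2 with 1 array left out. For any difference among conditions 1 was called, against 2 with trended robust variance, 0 with no replicate block, 0 without the wild type or the ced-1 strain and 0 to 1 with 1 array left out. Without the dys-1 strain the count stayed at 1, with mlt-7 called in place of mlt-10. The replicate block changed no other count of members called. The other 9 comparisons gave 0 in every fit. Single members were followed for the 28 differences with an unadjusted p under 0.05. Of their 675 values under alternatives, 647 kept their side of the threshold and 24 calls were lost, while 4 were gained and 0 changed sign. Members with a larger p were not part of this count, and some of them did change sign, as given for the comparisons of the dys-1 mutant. Over all genes, the counts called ran from 942 to 3253 for carried worms against the transport control (2497 as reported), 1016 to 3969 for static flight against it (3025), 396 to 1300 for centrifuged flight against it (927), 347 to 1783 for the ground control against it (1069), 485 to 1622 for the flown against the control pair (1189) and 570 to 2418 for any difference (1648). They ran from 1 to 116 for static flight against the ground control (42), 1 to 12 for centrifuged flight against the ground control (7), 0 to 301 for static against centrifuged flight (1, with 301 under array weights), 0 to 329 for the dys-1 mutant against the wild type (0) and 0 to 335 for the dys-1 against the ced-1 mutant (0). With no replicate block they were 1 for static flight against the ground control, 3 for centrifuged flight against it and 698 for the ground control against the transport control. The causes were not tested. Signal over background could not be judged, as the files hold no background.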
